A study of Mus musculus with 14 samples.

Results

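Interferon response and antigen processing genes were followed in 3T3-L1 cells, mouse preadipocytes that become fat cells after treatment with a mixture of hormones. The group held 37 listed genes. A gene was measured where the array had a probe set whose annotation named that gene and no other, and its brightest such probe set over all 14 arrays stood for it. On this rule 35 of the 37 genes were measured, through 59 probe sets, out of 18193 genes measured in all. Isg15, the ubiquitin-like antiviral modifier, had no value because its probe set also carried a second symbol, and Ifi44 had no probe set under its symbol. The list was made with earlier results of these data known.

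Messenger RNA had been measured on Affymetrix mouse genome arrays in cells that carried a SETD5 retrovirus and in cells that carried an empty retrovirus. SETD5 had a V5 tag and was expressed from a weak viral LTR promoter, and each arm was a transduced line. RNA was taken before induction (0 h, confluent preadipocytes) and at 12, 24, 36, 48, 96 and 192 h, with 1 array for each virus and hour. Both arms received insulin (1 µg/ml), dexamethasone (0.25 µM) and isobutylmethylxanthine (0.5 mM), together called the MDI mixture, for 48 h, and insulin (1 µg/ml) alone after that. The 12, 24, 36 and 48 h arrays are called the mixture hours here, and the 96 and 192 h arrays the insulin-only hours. The parts of the mixture were not given singly, so dexamethasone cannot be told apart from the other agents or from the change of medium, and SETD5 cannot be told apart from any other difference between the lines.

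Interferons act through receptors and Janus kinases that switch on transcription factors, STAT2 and IRF9 among them, which bind an interferon-stimulated response element in front of target genes. The targets include sensors of viral RNA, effectors that block viral replication, and the machinery that cuts proteins into peptides and loads them onto class I molecules. Many of these genes have a basal level in resting fibroblasts. Glucocorticoids are known to dampen interferon signalling in several cell types.

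A gene was tested where 3 or more of the 14 arrays had it at an intensity of 50 or above, which left 8682 genes in all and 21 of the 35 measured genes of the list. Of these 21, 9 reached 50 on all 14 arrays. The others passed through the hours at which they were high, often 0 h, so a fall was in part built into their selection. For some a return was too. Ifit3 and Igtp passed through the 0 h and 192 h arrays only. Usp18 passed through both 0 h arrays and the 192 h array of the empty virus. The 14 genes left out were Stat2, Irf7, Ifit1, Oasl2, Rsad2, Ifih1, Dhx58, Parp14, Psmb8, Psmb9, Tap1, Tap2, Gbp3 and Cxcl10, and each was also fitted without the filter. The share of tested genes at 50 or above was 88.4% to 93.8%, depending on the array. The number of arrays limits the precision: each virus and hour had 1 array, so the hours of a window, or the arrays of both viruses at an hour, stood in for replicates, and a p-value measured only the spread between these arrays. The arrays carried the marks of preadipocytes: 8 of 8 fibroblast and preadipocyte markers were tested, and their summed intensity was 20199.7 to 29583.0 in SETD5 virus cells and 21497.8 to 25183.9 in empty virus cells. Vim, Col1a2 and Col3a1 made up most of that sum, and single markers moved with the genes of the list. The PDGF receptor gene Pdgfrb was at 1656.1, 253.7, 325.5, 548.2, 534.2, 1117.5 and 1552.6 in SETD5 virus cells and at 1836.3, 205.3, 321.5, 507.2, 423.7, 844.0 and 1393.9 in empty virus cells at 0, 12, 24, 36, 48, 96 and 192 h. Of the 8 markers 3 were called lower over the mixture hours than at 0 h and 1 higher, against 24.9% and 18.7% of all tested genes.

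The promoters of members that stand for the main patterns are shown here, because interferon-stimulated response elements are the best known control sequence of such genes. Windows ran from 250 bases before to 50 bases after the annotated start of each gene (RefSeq, GRCm38.p6), and 31 of the 37 genes had one. Capitals mark the response element letters, GAAA, any 2 bases and GAAA, searched on both strands, so that TTTC, any 2 bases and TTTC is the same motif on the other strand. Ifit3, Gbp2 and Bst2 fell in the mixture and hold the motif. Xaf1 fell the most among the 21 tested genes of the list and its window holds no such letters. Ifitm3 was not called in the mixture and its window holds the motif at 2 places.
Ifit3: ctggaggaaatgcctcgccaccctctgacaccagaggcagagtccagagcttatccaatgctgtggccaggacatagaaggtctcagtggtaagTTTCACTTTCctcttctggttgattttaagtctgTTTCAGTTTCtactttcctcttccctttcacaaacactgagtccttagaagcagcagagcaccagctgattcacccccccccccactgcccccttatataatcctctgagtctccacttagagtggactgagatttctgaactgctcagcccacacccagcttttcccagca
Gbp2: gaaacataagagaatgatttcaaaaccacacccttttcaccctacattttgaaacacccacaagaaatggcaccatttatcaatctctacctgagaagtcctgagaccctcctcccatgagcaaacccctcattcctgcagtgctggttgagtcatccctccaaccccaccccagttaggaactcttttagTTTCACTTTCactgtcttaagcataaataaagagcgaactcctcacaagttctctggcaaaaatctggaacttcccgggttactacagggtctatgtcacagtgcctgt
Bst2: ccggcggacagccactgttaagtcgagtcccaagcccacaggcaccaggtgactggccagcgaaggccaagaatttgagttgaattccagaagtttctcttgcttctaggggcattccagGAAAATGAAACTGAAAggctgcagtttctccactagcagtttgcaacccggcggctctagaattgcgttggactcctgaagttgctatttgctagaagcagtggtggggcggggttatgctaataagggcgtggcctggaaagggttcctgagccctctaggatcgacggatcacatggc
Xaf1: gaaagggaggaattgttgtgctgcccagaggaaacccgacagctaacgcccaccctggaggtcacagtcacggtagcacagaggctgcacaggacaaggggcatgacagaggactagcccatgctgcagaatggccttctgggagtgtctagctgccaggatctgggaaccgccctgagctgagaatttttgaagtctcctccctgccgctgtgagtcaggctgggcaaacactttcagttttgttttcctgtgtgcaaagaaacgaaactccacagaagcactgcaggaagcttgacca
Ifitm3: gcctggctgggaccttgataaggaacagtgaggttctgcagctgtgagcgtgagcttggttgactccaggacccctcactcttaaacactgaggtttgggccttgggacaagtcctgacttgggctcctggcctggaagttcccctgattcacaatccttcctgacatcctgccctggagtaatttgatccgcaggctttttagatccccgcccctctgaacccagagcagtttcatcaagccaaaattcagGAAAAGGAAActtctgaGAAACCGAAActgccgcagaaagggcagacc
The Ifit3 window lies at chr19:34583279-34583578 (plus strand), the Gbp2 window at chr3:142620413-142620712 (plus strand) and the Xaf1 window at chr11:72301379-72301678 (plus strand). The Bst2 window lies at chr8:71537423-71537722 (minus strand) and the Ifitm3 window at chr7:141010695-141010994 (minus strand).

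The response element letters were present in the windows of 16 of the 31 genes (51.6%), against 3.99% of the 27025 genes with a window in the table. Of the 15 genes with a window that were called lower in the mixture 8 held them, and of the 3 tested genes with a window that were not called 1 did. The letters TTCNNNGAA, the core of a gamma-activated site, occurred in 8 of the 31 genes (25.8%) and in 9.55% of all genes. The spaced palindrome of a glucocorticoid response element (G, any base, ACA, any 3 bases, TGT, any base, C) occurred in 0 of the 31 genes and in 0.537% of all genes. These matches only describe the letters in the windows. In the Bst2 and Irgm1 windows and in a Gbp3 window the motifs overlapped in pairs, and in the Isg15 window 3 overlapped in a row.

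Most of the measured genes fell within 12 h of the mixture and stayed low until 48 h. Of the 35 measured genes, 30 lay below their own 0 h intensity on every mixture array of the SETD5 virus arm, where 26% of all 18193 measured genes did. In the empty virus arm 30 did so (29.1% of all genes), and 29 did so in both arms (17.1%). In limma on log2 of (intensity + 16), with virus as a block and hours as a factor, 18 of the 21 tested genes were lower over the mixture hours than at 0 h and 0 were higher, while 24.9% of all tested genes were lower and 18.7% higher. The adjusted p (Benjamini-Hochberg over all 8682 genes) of the 18 ran between 2.3e-06 and 0.0238. The median log2 difference was -1.37 over the 21 genes and -0.03 over all genes tested. Fitted without the filter, 29 of the 35 genes were lower and 0 higher, against 13.6% and 8.15% of all 18193 genes.

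**Figure D1:**
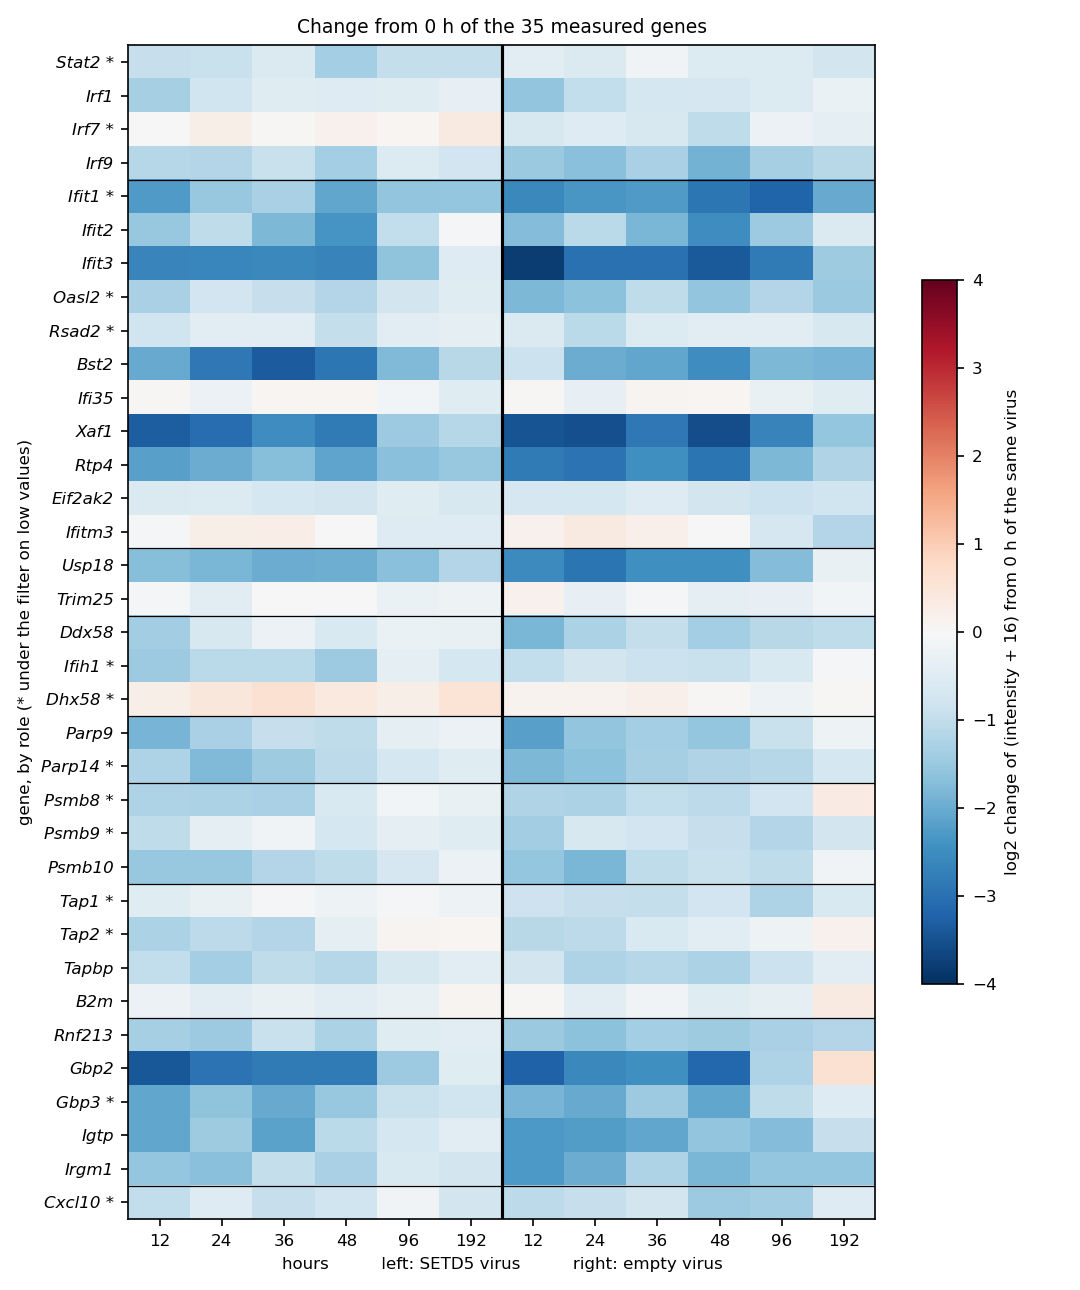
Change of each of the 35 measured genes from 0 h of the same virus, as log2 of (intensity + 16), with genes down the page by role and hours across, the SETD5 virus on the left and the empty virus on the right. Blue is lower than 0 h, red is higher, and a star marks the 14 genes under the filter on low values; the 4 mixture hours are mostly blue and the 192 h columns are paler.

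Among the transcription factors of the response, Irf9, which acts together with STAT2, had intensities of 140.0, 54.3, 53.7, 68.8, 45.0, 90.1 and 76.3 in SETD5 virus cells at 0, 12, 24, 36, 48, 96 and 192 h. In empty virus cells Irf9 had 191.3, 57.3, 48.5, 67.5, 39.4, 65.8 and 79.1 at the same hours. Irf9 was thus highest at 0 h in both arms and no later array reached its 0 h intensity. Its log2 difference, mixture hours minus 0 h, was -1.37 ± 0.13 (SE, limma; 2.58-fold, adjusted p = 3.08e-05). Irf1, a factor induced above all by interferon gamma, had 303.9, 111.4, 169.7, 211.8, 207.5, 213.6 and 241.1 in SETD5 virus cells and 315.5, 95.3, 149.8, 186.7, 191.9, 210.6 and 260.7 in empty virus cells. It was lowest at 12 h in both arms and higher at each of the later hours, with a difference of -0.88 ± 0.09 (adjusted p = 5.33e-05). Stat2 was dim throughout, at 38.3 in SETD5 virus cells and 30.2 in empty virus cells at 0 h and between 5.1 and 25.8 on the mixture arrays. Irf7, the factor that amplifies interferon production, was at most 24.5 on any array.

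The cytosolic RNA sensor Ddx58, also known as RIG-I, was at 132.0, 41.0, 78.5, 111.0, 80.9, 106.1 and 103.7 in SETD5 virus cells. In empty virus cells it was at 168.2, 35.5, 59.8, 80.0, 55.4, 69.3 and 75.5. Ddx58 was lowest at 12 h in both arms and had regained part of its level by 36 h, still within the mixture. Its difference over the mixture hours was -1.04 ± 0.14 (2.05-fold, adjusted p = 0.000348). The other RNA sensors were dim, Ifih1 (MDA5) being at most 31.4 and Dhx58 (LGP2) at most 14.1 on any array in the probe sets used. A dimmer probe set of Dhx58 read 22.4 on the 0 h array of the empty virus and 6.1 on that of the SETD5 virus. On the mixture arrays it read at most 9.6 with the empty virus and at most 3.0 with the SETD5 virus.

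The antiviral effectors held the largest falls. Xaf1, a pro-apoptotic interferon target, had intensities of 219.3, 8.0, 12.5, 26.5, 17.3, 69.8 and 90.6 in SETD5 virus cells and 348.1, 16.9, 15.8, 34.0, 15.4, 40.8 and 107.7 in empty virus cells. Every mixture array was below every other array of the same arm. The log2 difference of Xaf1, mixture hours minus 0 h, was -3.13 ± 0.19 (8.73-fold, adjusted p = 2.3e-06), the largest among the 21 genes. Ifit3, whose human form binds and stabilises the viral RNA binding protein IFIT1, had 157.1, 11.8, 12.5, 13.1, 11.2, 40.5 and 104.4 in SETD5 virus cells and 226.3, 1.5, 14.8, 14.3, 7.8, 18 and 74.6 in empty virus cells. It was near the floor of the array at all mixture hours, and its difference was -2.95 ± 0.21 (7.73-fold, adjusted p = 4.99e-06). Because 16 was added to each intensity, these fold changes understate the change of genes that drop to a few units.

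Rtp4, a negative regulator of interferon signalling, was at 215.4, 35.2, 42.5, 55.8, 38.1, 57.2 and 65.0 in SETD5 virus cells and at 274.3, 25.2, 21.3, 36.8, 22.2, 66.8 and 109.0 in empty virus cells. It fell by 2.39 ± 0.22 on the log2 scale (adjusted p = 3.08e-05), with all mixture arrays below both 0 h arrays. Bst2, also called tetherin, which holds budding virus particles at the cell surface, was at 369.5, 79.5, 36.6, 22.4, 36.2, 98.6 and 162.0 in SETD5 virus cells and at 241.0, 124.2, 49.2, 45.3, 30.4, 57.3 and 54.5 in empty virus cells. It went on falling after 12 h, the lowest array being the 36 h one with SETD5 virus and the 48 h one with empty virus. The difference of Bst2 was -2.31 ± 0.32 (4.96-fold, adjusted p = 0.000387). Ifit2 (-1.73 ± 0.12) and Eif2ak2 (-0.65 ± 0.10), the kinase PKR that stops translation when double-stranded RNA is present, were also lower. All 3 probe sets of Eif2ak2 gave a fall.

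The 3 tested genes that were not called were examined after their values were seen. Ifitm3, which blocks the entry of viruses through endosomes, had 3286.0, 3115.5, 3899.9, 3995.5, 3283.1, 2269.0 and 2315.3 in SETD5 virus cells and 2955.6, 3302.9, 3770.6, 3425.1, 2956.8, 1835.8 and 1296.6 in empty virus cells. Over the mixture hours it differed from 0 h by 0.15 ± 0.15 (adjusted p = 0.438), and its 4 lowest arrays were those of the insulin-only hours. Ifi35 differed by -0.02 ± 0.08 (adjusted p = 0.85), with intensities between 462.5 and 691.6 in SETD5 virus cells and between 478.8 and 742.6 in empty virus cells. Trim25, the ubiquitin ligase that activates RIG-I, differed by -0.14 ± 0.11 (adjusted p = 0.348). The probe sets used for Ifi35 and Trim25 were of a kind that can also match related transcripts.

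In the ISG15 system, Usp18, the protease that removes ISG15 from proteins and restrains interferon receptors, had 72.4, 11.2, 8.9, 6.5, 7.0, 12.0 and 23 in SETD5 virus cells. In empty virus cells Usp18 had 113.7, 6.2, 1.0, 7.9, 7.5, 22.6 and 89.9. All mixture arrays lay far below both 0 h arrays, and the difference was -2.23 ± 0.29 (4.69-fold, adjusted p = 0.000252). Parp9, an ADP-ribosyltransferase that acts with the ligase DTX3L in antiviral defence, had 193.1, 42.0, 68.6, 94.1, 86.6, 144.6 and 160.7 in SETD5 virus cells and 224.1, 37.6, 64.9, 77.1, 66.8, 113.9 and 192.5 in empty virus cells. It was lowest at 12 h in both arms, with a difference of -1.47 ± 0.12 (adjusted p = 1.61e-05). Parp14 did not pass the filter and fell without it (-1.43 ± 0.13, adjusted p = 7.14e-05 among all 18193 genes).

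Of the antigen processing genes, Psmb10, B2m and Tapbp were tested and all 3 fell. Psmb10, a catalytic subunit of the immunoproteasome, the form of the proteasome that favours peptides for class I molecules, had 322.5, 102.2, 101.3, 133.7, 152.5, 196.2 and 271.4 in SETD5 virus cells and 284.2, 86.5, 69.3, 131.6, 146.1, 131.0 and 254.7 in empty virus cells. All 8 mixture arrays were below both 0 h arrays, and the difference was -1.31 ± 0.11 (2.49-fold, adjusted p = 1.94e-05). The other immunoproteasome subunits, Psmb8 and Psmb9, were at most 33.4 and 28.0 on any array. The constitutive catalytic subunits of the proteasome were not called lower: Psmb5, Psmb6 and Psmb7 differed by 0.36, 0.18 and 0.22, and of these Psmb5 was called higher (adjusted p = 0.013).

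Tapbp, or tapasin, which holds class I molecules at the peptide transporter, had 939.0, 468.6, 354.9, 458.9, 420.6, 600.8 and 690.8 in SETD5 virus cells and 873.7, 518.4, 362.8, 385.1, 355.4, 474.0 and 630.5 in empty virus cells. It was highest at 0 h in both arms and differed by -1.11 ± 0.10 (adjusted p = 3.07e-05). B2m, the light chain of class I molecules, had 4312.7, 3641.1, 3179.2, 3516.8, 3123.4, 3511.3 and 4670.5 in SETD5 virus cells and 3917.8, 4018.0, 2945.6, 3517.4, 2820.1, 3063.2 and 5020.3 in empty virus cells. Its fall was small (-0.30 ± 0.09, adjusted p = 0.0238), and the call was lost under median scaling and without either 0 h array (highest adjusted p = 0.192, without that of the SETD5 virus). The 12 h array of the empty virus arm was above the 0 h array of that arm. The peptide transporter genes Tap1 and Tap2 were dim, at most 40.6 and 51.1, and without the filter Tap2 was called lower (-0.88) and Tap1 was not (-0.56, adjusted p = 0.0557).

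Of the 5 interferon-induced GTPases and Rnf213 listed together, 4 were tested and all 4 fell. Gbp2, a guanylate-binding protein that attacks the vacuoles of intracellular pathogens, had 187.7, 3.3, 10.4, 12.8, 12.4, 59.2 and 130.7 in SETD5 virus cells and 175.4, 4.5, 16.2, 18.6, 5.8, 64.8 and 276.0 in empty virus cells. It was near the floor on all mixture arrays and differed by -2.93 ± 0.20 (7.6-fold, adjusted p = 4.58e-06). The probe set used for Gbp2 was of a kind that can also match related transcripts, and its second probe set gave -2.39. Igtp, an immunity-related GTPase, had 79.5, 6.4, 19.4, 5.8, 29.2, 42.1 and 53.3 in SETD5 virus cells and 113.8, 10.6, 11.4, 14.7, 27.6, 23.2 and 52.8 in empty virus cells. No later array of Igtp reached its 0 h array, and the difference was -1.86 ± 0.19 (adjusted p = 5.12e-05). Irgm1, another of this family, had 151.0, 41.5, 36.7, 69.6, 52.1, 92.5 and 84.5 in SETD5 virus cells and 227.4, 33.2, 45.1, 87.4, 53.0, 67.3 and 67.3 in empty virus cells, a difference of -1.60 ± 0.16 (adjusted p = 5.45e-05).

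Rnf213, a large ubiquitin ligase with an ATPase core, was found by the study in SETD5 immunoprecipitates by proteomics. The study then reported a fall of its mRNA by 12 h on these same arrays, so the values here are no independent evidence of that fall. Rnf213 had 257.3, 93.3, 83.9, 131.1, 96.9, 177.4 and 187.3 in SETD5 virus cells and 319.6, 105.2, 92.3, 113.6, 109.8, 120.7 and 134.1 in empty virus cells. Every mixture array was below both 0 h arrays, and 1 mixture array, that of 36 h with the SETD5 virus, was above the lowest insulin-only array. The difference was -1.35 ± 0.16 (2.56-fold, adjusted p = 0.000115). Cxcl10, a chemokine that draws T cells, was at 17.5 in SETD5 virus cells and 30.4 in empty virus cells at 0 h and at most 11.8 on the mixture arrays.

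**Figure D2:**
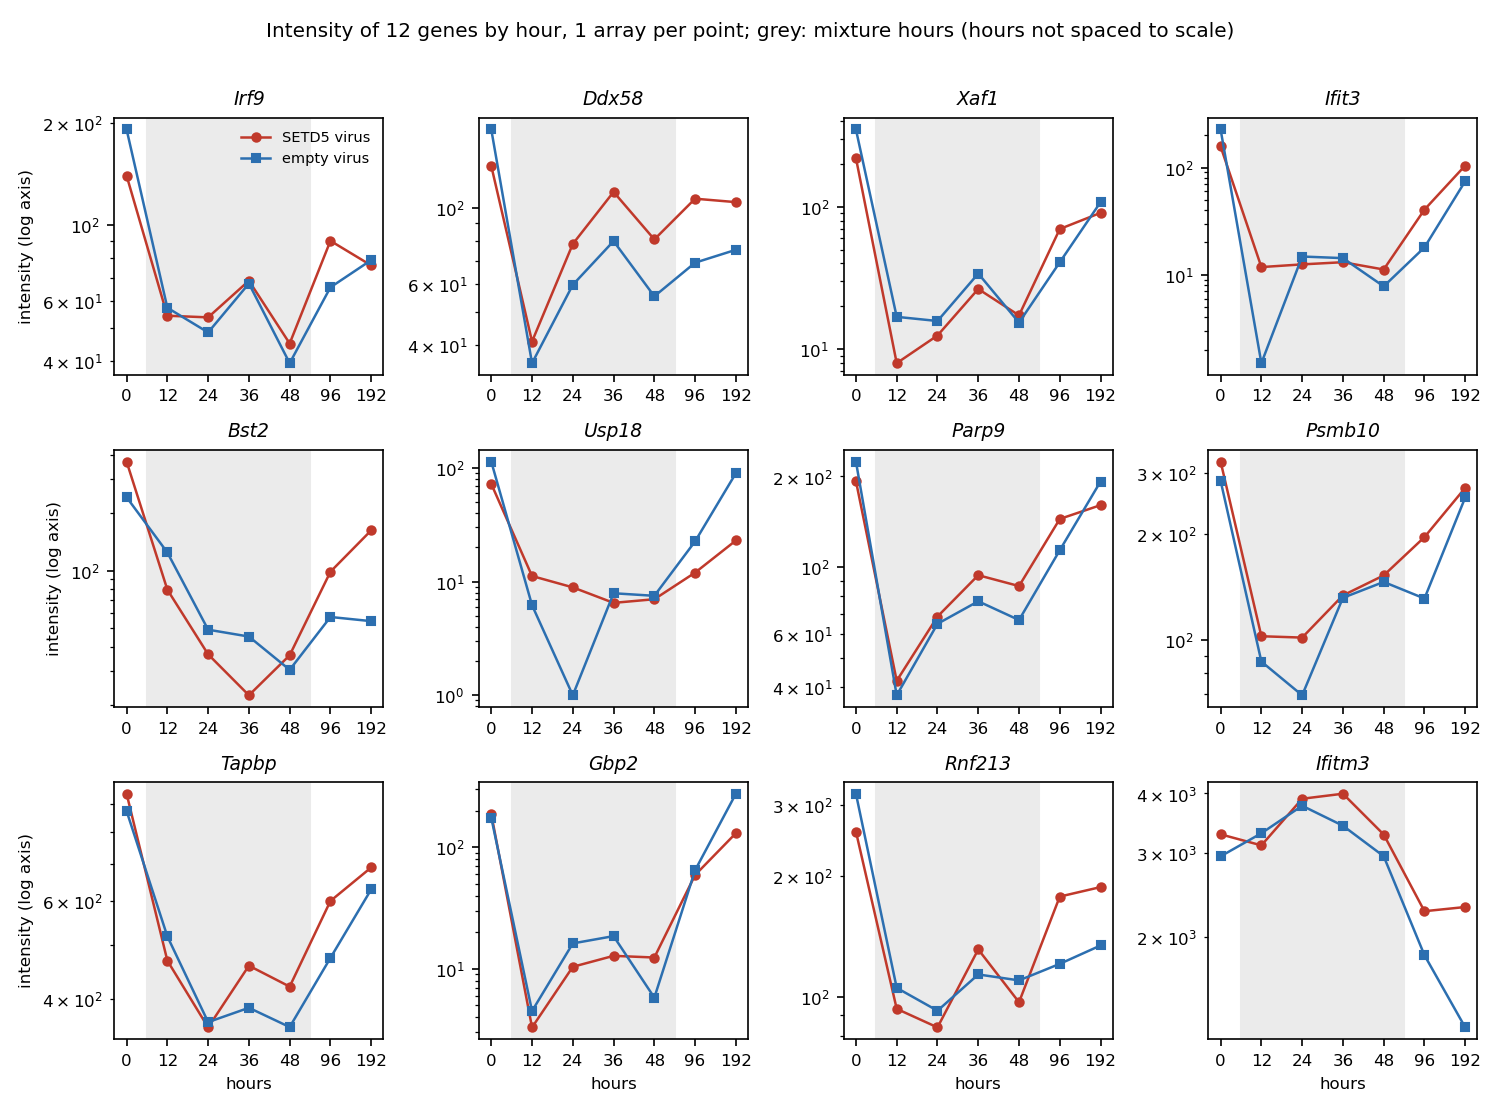
Intensity of 12 of the genes on each array, on a log axis, against hours that are not spaced to scale, with circles for the SETD5 virus and squares for the empty virus and the mixture hours in grey. Xaf1, Ifit3 and Gbp2 drop to near the floor in the mixture and climb after 48 h, while Ifitm3 keeps its level in the mixture and falls after it.

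The fall was present at 12 h, the first hour measured. Tested hour by hour against 0 h, 17 of the 21 genes were lower at 12 h (27.9% of all tested genes were), 19 at 24 h (21.9%), 17 at 36 h (17%) and 18 at 48 h (19.9%). At the insulin-only hours 17 were lower at 96 h (9.53%) and 12 at 192 h (12.3%). At all 6 hours 0 of the 21 genes were called higher, where 19.9%, 16.4%, 12.4%, 14.4%, 6.12% and 7.3% of all tested genes were called higher at 12, 24, 36, 48, 96 and 192 h. The 0 h side of these tests rests on 1 array of each virus. Without the 0 h array of the empty virus the count was 6 at 96 h and 0 at 192 h, and without the 96 h or the 192 h array of that virus it was 4 at 96 h or 7 at 192 h.

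Taken on its own, each arm had 1 array at 0 h and no replicate of it. A test within an arm thus assumed that this array varied like those of the other windows, whose hours served as replicates. Both arms were fitted in 1 model and shared their spread, so the tests of the arms are not independent of each other. In the SETD5 virus arm 9 of the 21 genes were lower over the mixture hours than at 0 h (1.83% of all genes were), and in the empty virus arm 12 were (3.39%). In neither arm was any of the 21 called higher, a count of 0 against 0.714% of all genes in the SETD5 virus arm and 1.14% in the empty virus arm. Irf9, Rnf213, Rtp4, Tapbp, Usp18, Xaf1, Gbp2 and Ifit3 were called in both. Bst2 passed the threshold with the SETD5 virus (-2.77 ± 0.55) and missed it with the empty virus (-1.85 ± 0.55, adjusted p = 0.0825), while Parp9, Igtp, Irgm1 and Eif2ak2 passed it with the empty virus and missed it with the SETD5 virus. The difference between the arms in this fall was not tested. Without any one of the 4 mixture arrays of the SETD5 virus arm its count was 3 to 5.

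After the change to insulin alone at 48 h most of the genes were higher again, though many stayed below their 0 h intensity. Over the insulin-only hours, 17 of the 21 genes were higher than in the mixture and 2 were lower, while 27.7% of all tested genes were higher and 26.7% lower. The adjusted p of these 19 ran between 2.27e-06 and 0.0429. The median log2 difference was 0.51 over the 21 genes and 0.01 over all genes tested. For genes that passed the filter through insulin-only arrays this return was in part built into their selection. Without the filter 21 of the 35 genes were higher and 2 were lower, against 16.3% and 12.8% of all genes. Among the genes under the filter those called higher were Gbp3, Ifih1, Parp14, Psmb8 and Tap2. Ifit1, another of them, gave 0.06 and was not called. Set against the 48 h arrays alone, 11 of the 21 genes were higher (13.1%). The 192 h arrays on their own gave 16 genes higher than in the mixture and 2 lower, against 25.6% and 25.4% of all tested genes.

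Gbp2 had the largest return, 2.29 ± 0.15 on the log2 scale (insulin-only minus mixture hours, 4.89-fold, adjusted p = 2.27e-06). Its 192 h intensity was 130.7 in SETD5 virus cells and 276.0 in empty virus cells, which is 69.6% and 157% of the 0 h intensity. Its second probe set was at 81.5 in SETD5 virus cells and 164.8 in empty virus cells at 192 h, against 123.5 and 141.4 at 0 h. Xaf1 (1.42 ± 0.14), Ifit3 (1.35 ± 0.16), Parp9 (1.04 ± 0.10), Usp18 (1.01 ± 0.23), Ifit2 (0.95 ± 0.09) and Igtp (0.91 ± 0.15) followed. For Xaf1 the 192 h array stood at 41.3% of 0 h in SETD5 virus cells and at 30.9% in empty virus cells, so its return was partial in both. Psmb10 came back further, to 84.2% and 89.6% of 0 h. Rtp4 returned by 0.84 ± 0.17 and stood at 30.2% of 0 h with the SETD5 virus and at 39.7% with the empty virus. The return of Bst2 (0.68 ± 0.25, adjusted p = 0.0429) was called in 9 of 26 alternative fits. The returns of Ddx58, B2m and Irgm1 lost their calls without the 96 h array of the SETD5 virus, and that of Ddx58 also without the 192 h array of this arm.

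Ifitm3 and Ifi35 were lower at the insulin-only hours than in the mixture, by 0.87 ± 0.11 (adjusted p = 0.000131) and 0.32 ± 0.06 (adjusted p = 0.00182) on the log2 scale. Neither had been called in the mixture against 0 h. Eif2ak2 (-0.06 ± 0.08) and Trim25 (-0.09 ± 0.09) gave no call. Eif2ak2 was at 205.0 and 181.5 in SETD5 virus cells and 190.2 and 197.7 in empty virus cells at 96 and 192 h.

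**Figure D3:**
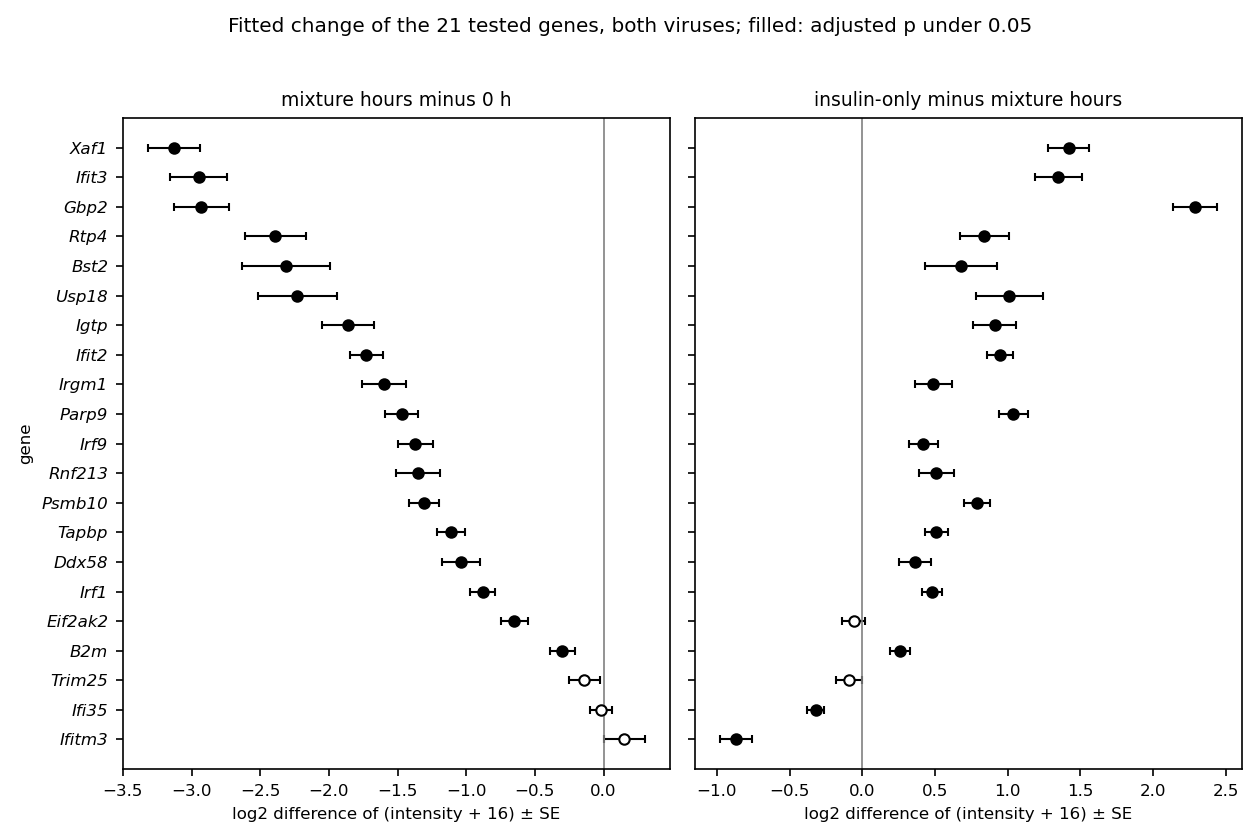
Fitted log2 difference with its standard error for the 21 tested genes over both viruses, mixture hours minus 0 h in the left panel and insulin-only minus mixture hours in the right panel, with filled circles where the adjusted p was under 0.05. The genes are ordered by the left panel; 18 are filled and left of 0 there, and on the right 17 are filled and right of 0 while Ifi35 and Ifitm3 are left of it.

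How complete the return was differed between genes. Over the insulin-only hours 18 of the 21 genes were lower than at 0 h and 0 were higher, against 13.6% and 8.14% of all tested genes. That count was 3 without the 0 h array of the empty virus and 11 without that of the SETD5 virus. The 12 genes called below 0 h at 192 h included Irf9 (-0.94 ± 0.16), Irgm1 (-1.14 ± 0.21), Rtp4 (-1.37 ± 0.28), Xaf1 (-1.35 ± 0.24) and Bst2 (-1.49 ± 0.41). Those not called included Gbp2 (0.07 ± 0.25), B2m (0.24 ± 0.12), Parp9 (-0.22 ± 0.16), Psmb10 (-0.19 ± 0.14) and Irf1 (-0.29 ± 0.11). Of the 35 measured genes 31 were below their 0 h intensity at 192 h with the SETD5 virus (46.1% of all genes were), 30 with the empty virus (52.5%) and 29 with both (29.5%). At 192 h 24 of the 35 were above all mixture arrays of their own arm with the SETD5 virus (31.8% of all genes), 23 with the empty virus (31.6%) and 20 with both (16.4%).

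Other genes of the pathway were read from lists that were also chosen with earlier results known. Of 53 other interferon-induced genes 22 passed the filter, and 19 of these were lower over the mixture hours than at 0 h and 2 were higher, with a median difference of -1.44 (24.9% of all tested genes were lower and 18.7% higher). Ifi47 (-2.59), Gbp7 (-2.58) and Irgm2 (-2.01) were among the lower ones. For genes of this list that passed through the hours at which they were high, a fall or a return was in part built into their selection. Ifi47 and Irgm2 reached 50 only on both 0 h arrays and the 192 h array of the SETD5 virus. Ifi204, a DNA sensor of the interferon-inducible p200 family, was higher (2.29 ± 0.10, adjusted p = 3.97e-07), at 300.7 to 444.5 in SETD5 virus cells and 302.5 to 476.1 in empty virus cells on the mixture arrays, against 71.9 and 66.8 at 0 h. Ifitm2, a close relative of Ifitm3, was the other. Over the insulin-only hours 16 of the 22 were higher than in the mixture and 2 were lower, against 27.7% and 26.7% of all tested genes.

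Of 23 ligands, receptors and kinases 13 were tested, and 5 were lower and 2 higher in the mixture than at 0 h, with a median of -0.11. Over all tested genes 24.9% were lower and 18.7% higher. The lower ones included Ifngr2 (-0.81), Il10rb (-0.61) and Tyk2 (-0.54), which are receptor chains and a kinase of the pathway, while Stat3 (0.65) and Jak2 (0.44) were higher. The interferon genes themselves were at or near the floor on all 14 arrays, Ifnb1 being at most 11.4, Ifna4 at most 8.3 and Ifng and Ifna2 at most 5.0. Of 15 class I heavy chain and assembly genes 9 were tested, 4 of them lower and 1 higher (24.9% and 18.7% over all tested genes), with H2-M3 (-2.01 ± 0.15) and Tapbpl (-1.05 ± 0.14) the furthest down. Tapbpl reached 50 only on 0 h and insulin-only arrays, so its fall was in part built into its selection. The class II genes measured were at most 23 on any array.

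Markers that could accompany these changes were read on the same arrays. Of 10 glucocorticoid targets 9 were higher over the mixture hours than at 0 h and 1 was lower, while 18.7% of all tested genes were higher and 24.9% lower. Fkbp5, a glucocorticoid-induced chaperone partner, was at 199.4, 1699.2, 1784.6, 2433.4, 2537.0, 2071.5 and 274.0 in SETD5 virus cells and at 237.3, 2175.9, 2025.6, 2836.3, 3019.9, 2597.3 and 169.6 in empty virus cells. Fkbp5 was still near its mixture level at 96 h and back near its 0 h intensity at 192 h. Dusp1, another target, had fallen from 980.2 at 48 h to 438.9 at 96 h in SETD5 virus cells and from 895.9 to 424.1 in empty virus cells. Of the 10 targets 3 were higher and 2 lower at 96 h than over the mixture hours, against 17.5% and 16.8% of all tested genes. The part of glucocorticoid action in the fall was not tested. Leukocyte and macrophage markers, which could bring interferon genes with them, passed the filter for 1 of 10 genes, and their summed intensity was 94.4 to 230.0 in SETD5 virus cells and 114.7 to 203.5 in empty virus cells. The defining leukocyte markers Ptprc, Itgam and Tyrobp were at most 6.7, 7.6 and 10.9 on any array, and 0 of 5 endothelial markers passed. Other markers of that list were brighter, Laptm5 reaching 110.0 and Cd14 55.6, and a pair of dim ones moved with the interferon genes. Lyz2, or lysozyme, was at 36.0, 16.5, 8.1, 8.2, 1.9, 11.2 and 49.7 in SETD5 virus cells and at 26.4, 8.4, 2.6, 3.6, 2.5, 5.0 and 18.7 in empty virus cells. Csf1r, a macrophage growth factor receptor, was at 32.6, 23.5, 10.7, 12.7, 16.2, 30.3 and 46.1 in SETD5 virus cells and at 31.6, 12.9, 0.7, 10.0, 9.8, 16.2 and 28.1 in empty virus cells. The part of such cells in the changes was not tested. Fat cell markers were higher at the insulin-only hours than in the mixture for 7 of 7 tested genes, where 27.7% of all tested genes were. The part of fat cell differentiation in the return was not tested.

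Over all 7 hours, with hour as a block, 0 of the 21 genes differed between SETD5 virus and empty virus cells at adjusted p under 0.05 in limma, while 0.887% of all tested genes were lower and 2.73% higher with the SETD5 virus. At an unadjusted p under 0.05, 5 of the 21 differed. The share of all tested genes under that unadjusted p was not counted, so the 5 cannot be set against it. Ifit2 was higher with the SETD5 virus at 7 of 7 hours (0.28 ± 0.08, adjusted p = 0.0755), and so was Psmb10 (0.22 ± 0.08, adjusted p = 0.136). Ddx58 (0.27 ± 0.10) and Ifitm3 (0.23 ± 0.10) were higher at 6 of 7 hours, and Eif2ak2 (-0.19 ± 0.07) was lower at 6 of 7. These differences are SETD5 virus minus empty virus on the log2 scale, and a p that misses the threshold does not show that the arms were alike.

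Within the mixture hours 1 of the 21 genes was called higher with the SETD5 virus (1.06% of all genes) and 0 were called lower (0.495%). This was Rtp4 (0.48 ± 0.10, adjusted p = 0.0459), which was higher with the SETD5 virus at each of the 4 mixture hours and lower with it at 0, 96 and 192 h. The call was lost when any one of the 4 mixture hours was left out. At the insulin-only hours 6 of the 21 genes were higher with the SETD5 virus and 1 was lower, against 13.7% and 10.3% of all tested genes. Bst2 (0.99 ± 0.21, adjusted p = 0.0101), Ddx58 (0.45 ± 0.12), Ifit2 (0.57 ± 0.11), Ifit3 (0.57 ± 0.18), Ifitm3 (0.57 ± 0.14) and Rnf213 (0.47 ± 0.12) were higher and Usp18 was lower (-0.95 ± 0.22, adjusted p = 0.0143). Usp18 passed the filter through the 0 h arrays and the 192 h array of the empty virus (89.9), so that value entered both its selection and this test. All 7 calls rest on 2 hours. Without the 192 h arrays 0 of the 21 genes were called, without the 96 h arrays 3 were higher and 3 lower, and without hour as a block 0 were called. Fat cell markers moved with the viruses at the same hours, their summed intensity at 192 h being 20009.0 in SETD5 virus cells and 34106.6 in empty virus cells, and the part of this in the differences was not tested.

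Whether the return after 48 h differed between the arms was tested as the virus difference at the insulin-only hours minus that at the mixture hours. Bst2 gave 1.33 ± 0.26 (adjusted p = 0.0215), the 1 gene of the 21 called higher (2% of all genes). Its intensity at 96 and 192 h was 98.6 and 162.0 in SETD5 virus cells and 57.3 and 54.5 in empty virus cells, and its insulin-only minus mixture difference was 1.34 ± 0.43 in the SETD5 virus arm and 0.01 ± 0.43 in the empty virus arm. Rtp4 (-0.88 ± 0.17, adjusted p = 0.0211) and Usp18 (-1.13 ± 0.27, adjusted p = 0.0404) were called lower, 2 of the 21 genes (3.94% of all genes). Usp18 reached 12.0 and 23 in SETD5 virus cells at 96 and 192 h and 22.6 and 89.9 in empty virus cells. The array with 89.9 was 1 of the 3 through which Usp18 passed the filter. Gbp2, with the 192 h values given above, was not called (-0.48 ± 0.26, adjusted p = 0.278). Without the 192 h arrays, without the filter, without hour as a block or with early and late windows in place of these 0 of these 3 calls were made. Without the 24 or the 36 h arrays 0 were made either, and without the 12 h arrays 1 gene was called lower.

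Taken arm by arm, the return gave 4 genes called higher and 1 called lower in the SETD5 virus arm (5.17% and 2.35% of all genes) and 5 called higher and 1 called lower in the empty virus arm (6.5% and 3.84%). Gbp2 (2.05 ± 0.45 and 2.53 ± 0.45) and Xaf1 (1.61 ± 0.32 and 1.23 ± 0.32) were higher in both arms. Ifit3 and Rnf213 passed the threshold with the SETD5 virus and missed it with the empty virus, and Parp9, Rtp4 and Usp18 did the opposite. The test between the arms gave no call for Ifit3 (0.40 ± 0.22, adjusted p = 0.29), Rnf213 (0.53 ± 0.15, adjusted p = 0.0661) or Parp9 (-0.15 ± 0.17, adjusted p = 0.634). Ifitm3 was lower in both (-0.63 ± 0.17 with the SETD5 virus and -1.11 ± 0.17 with the empty virus). Without the 192 h array of an arm 0 genes were called higher in that arm. Leaving out the 12, 24 or 96 h array of the SETD5 virus arm left 2 genes called higher there, and leaving out the 12, 24 or 48 h array of the empty virus arm left 3 there. The Ifitm3 call in the SETD5 virus arm was lost without any one of its mixture or insulin-only arrays. Because the arms shared their spread, arrays of the other arm mattered too. That call was also lost without any one of the mixture arrays of the empty virus arm. Fewer genes were called higher in the empty virus arm without the 24, 96 or 192 h array of the SETD5 virus arm.

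**Figure D4:**
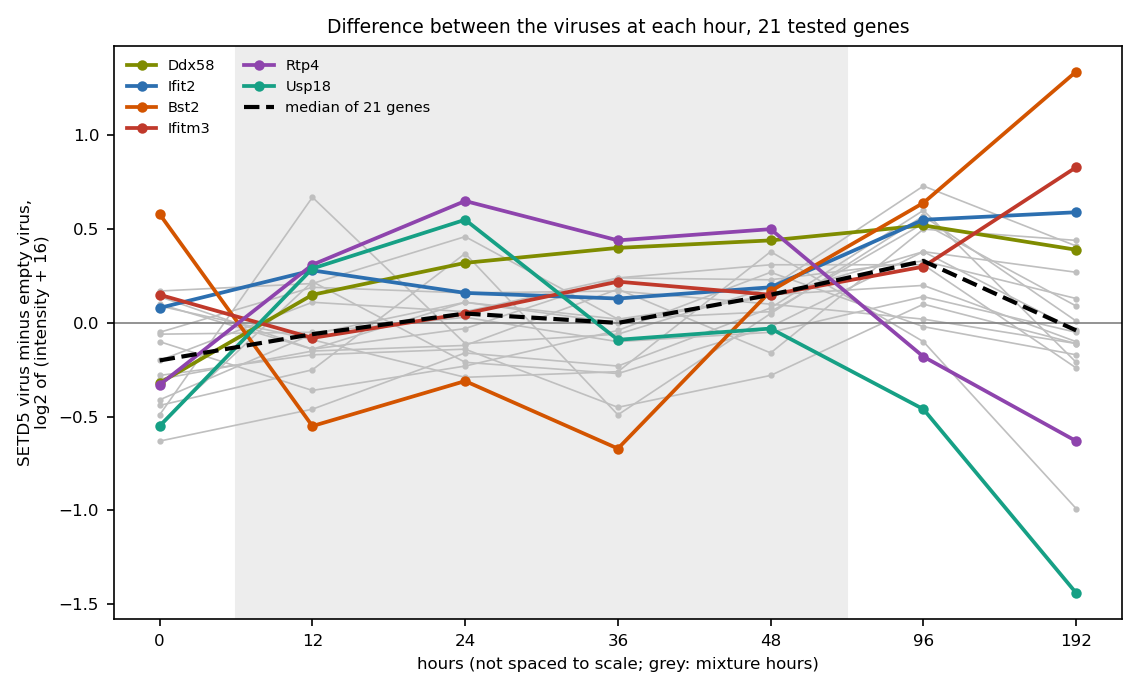
Difference between SETD5 virus and empty virus in log2 of (intensity + 16) at each hour for the 21 tested genes, 1 line a gene, with 6 genes in colour, the median as a dashed line and the mixture hours in grey. The median lies between -0.20 and 0.33 at all hours, while Bst2 and Ifitm3 end above it and Usp18 and Rtp4 below it at 192 h.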

How the data were processed

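Total RNA from 14 cultures of 3T3-L1 cells was hybridised to Affymetrix mouse genome arrays, 1 array for each virus and hour. The authors made 1 linear intensity per probe set with GeneChip Analysis Suite 5.0, and the deposited intensity values carry no log transform. On every array the mean left after trimming 2% at each end was 100.0, so the arrays had been scaled to a common level. Of the scaling target the value was not given in the sources used here, and detection calls were not used. The file held 45100 probe sets, of which 64 were controls, 34944 had 1 gene symbol in the platform annotation, 932 had several and 9160 had none. Tested genes had a median intensity between 188.2 and 207.5, depending on the array.

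Groups and hours were taken from the labels. Each gene was represented by its brightest probe set, 16 was added before log2, and genes with 50 or more on at least 3 arrays were tested in R 4.3.3 by two-sided moderated tests (limma 3.58.1, functions lmFit and eBayes), with Benjamini-Hochberg adjustment over all genes tested and a threshold of 0.05. Time was tested with hour as a factor and with virus as the blocking factor, on 6 residual degrees of freedom. The virus effect was tested over all hours with hour as a block, and within windows in a second model (4 residual degrees of freedom). Arms on their own were fitted as arm by window without hour (8 residual degrees of freedom). The code was tested on simulated data. Same-hour arrays of both viruses come from the same treatment and deviated together from their virus means (correlations of 0.71 to 0.90 over the 7 hours), so hour was kept as the pairing.

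Alternatives were quantile normalization, median scaling, offsets of 4 and 64, no filter, a filter of 100, every probe set, a trended robust prior, fits without blocks, other windows and leaving out arrays. The members and lists, the tests and the alternatives were chosen with earlier results of these data known. Values on every array are given for the tested members with the largest change, mixture hours minus 0 h, up to 4 in each of the 9 role groups, except Trim25. They are also given for Rnf213, Irf9 and Ifitm3. For Stat2 and Cxcl10 the 0 h values are given with a range or a maximum on the mixture arrays. The genes named from the other lists did not follow a fixed rule. Promoter windows are from RefSeq (GRCm38.p6).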

Additional observations from a re-analysis of the deposited data

Results flagged for a closer look

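Among the differences between the viruses at the 7 hours, Ifitm3 at 192 h stood apart. The difference was 0.83 on the log2 scale, with 2315.3 in SETD5 virus cells and 1296.6 in empty virus cells, while the other 6 hours lay between -0.08 and 0.30. Its gap to the next hour was 0.576 of the whole range, above Dixon's critical value for 7 values, and chance gives such a gap in about 1 in 20 sets of hours. The 21 tested genes gave 21 such sets, so about 1 gap of this kind is what chance gives.

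The test of whether the virus effect changed between the mixture hours and the insulin-only hours was passed by 3 genes. Bst2 gave 1.33, Rtp4 gave -0.88 and Usp18 gave -1.13 on the log2 scale. The difference SETD5 virus minus empty virus of Bst2 was -0.55, -0.31, -0.67 and 0.17 at 12, 24, 36 and 48 h and 0.64 and 1.34 at 96 and 192 h. That of Rtp4 was 0.31, 0.65, 0.44 and 0.50 and then -0.18 and -0.63. That of Usp18 was 0.29, 0.55, -0.09 and -0.03 and then -0.46 and -1.44. The 192 h array of the empty virus was among those through which Usp18 passed the filter.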

How the results depend on the processing

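The fall in the mixture was called for 17 to 18 of the 21 genes when any 1 array was left out and for 14 to 18 under the other settings with a filter. The 14 came from a filter of 100, which left Irf9, Usp18, Igtp and Irgm1 untested. With no filter the fall was called for 29 of 35, and the 12 h count was 27. Falls against 0 h at later hours rested on few arrays: leaving out 1 array gave 3 to 19 genes for the insulin-only hours, 4 to 18 at 96 h and 0 to 13 at 192 h. The return was called higher for 11 genes against the 48 h arrays alone and 13 to 17 with 1 array left out, and called lower for 1 gene at 96 h alone. Without the replicate block (hour as a block) the counts were 0 higher in the mixture, 0 higher and 0 lower at the insulin-only hours, and 0 and 0 for their difference. With early (0 to 24 h) and late (36 to 192 h) windows they were 0 in the mixture window, 2 higher and 0 lower in the insulin-only window and 0 and 0 for the difference. With no filter they were 0 in the mixture, 2 higher at the insulin-only hours and 0 and 0 for the difference. The Rtp4 call in the mixture gave 0 under quantile normalization, median scaling, an offset of 64 and the trended prior. Lower calls at the insulin-only hours were 2 under quantile normalization or median scaling and 0 with a filter of 100, where Usp18 was not tested. Lower calls for the difference were 1 under quantile normalization, offsets of 4 and 64, every probe set and a filter of 100, where again Usp18 was not tested. Over all hours an offset of 4 gave 1 gene called higher.

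With 1 hour left out the virus counts ranged as follows. Over all hours 0 to 1 were higher, in the mixture 0 to 1, at the insulin-only hours 0 to 6 higher and 0 to 3 lower, and for the difference 0 to 2 higher and 0 to 3 lower. In the SETD5 virus arm alone 3 to 9 fell, and 0 to 5 returned and 0 to 1 were lower after 48 h, the last being 0 under quantile normalization, an offset of 4, no filter or every probe set. In the empty virus arm 0 to 6 returned (3 under quantile normalization) and 0 to 1 were lower. Sign changes were near 0 and of values not called, except B2m, whose return was -0.02 at 96 h alone. In the fall Ifitm3 gave -0.06 under quantile normalization, and Ifi35 0.07 under median scaling and 0.00 without the 0 h array of the empty virus. In the return Eif2ak2 gave 0.03 against 48 h alone and -0.14 to 0.03 with 1 array left out. In the virus effect over all hours Irf9 gave -0.02 under quantile normalization, -0.01 under median scaling and -0.04 to 0.09 with 1 hour left out, and the same omissions gave Bst2 -0.02 to 0.31, Igtp -0.13 to 0.05, Irgm1 -0.09 to 0.06 and Rnf213 -0.02 to 0.12. The cause of these moves was not tested. Genes that stay below the filter are limited by signal over background, and scaling moved no median of all genes by more than 0.11.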

Other observations

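Some genes outside the list were examined after their values were seen. The class I heavy chain gene H2-K1 was at 801.9, 558.6, 614.1, 705.1, 717.0, 462.0 and 605.2 in SETD5 virus cells at 0, 12, 24, 36, 48, 96 and 192 h, and at 818.1, 574.6, 475.0, 619.5, 534.9, 529.2 and 2016.3 in empty virus cells. The 192 h array of the empty virus arm was the highest of the 14. Gbp6, a relative of Gbp2, was at 58.3, 6.0, 0.4, 13.1, 0.6, 32.0 and 81.4 in SETD5 virus cells and at 69.1, 1.0, 2.3, 10.1, 1.0, 58.7 and 240.7 in empty virus cells. Gbp6 was likewise highest on the 192 h array of the empty virus arm, as was Gbp2 (276.0). Other genes outside the list differed the other way at 192 h. Gbp7 was at 163.7 in SETD5 virus cells and 134.2 in empty virus cells, and H2-M3 was at 445.8 and 241.0. These are values of 1 array each and the differences at 192 h alone were not tested. The 96 and 192 h arrays together were tested in limma. H2-K1 (-0.95 ± 0.28, adjusted p = 0.0337) and Gbp6 (-1.02 ± 0.18, adjusted p = 0.00523) were lower with the SETD5 virus. Gbp7 (0.69 ± 0.20, adjusted p = 0.0322) and H2-M3 (0.64 ± 0.16, adjusted p = 0.0181) were higher. Of 22 other interferon-induced genes 6 were higher and 1 lower, and of 9 class I genes 1 and 1, against 13.7% and 10.3% of all tested genes.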
